A study of Mus musculus with 60 samples.

Results

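The data describe mouse cancer-associated fibroblasts (CAFs) that were aggregated with 393P lung adenocarcinoma cells, set against the same kind of fibroblast aggregated without cancer cells. They were chosen by culture label alone: 3 libraries of CAFs with 393P and 3 of CAFs alone, 6 of the 60 libraries of the series. In a multicellular aggregate the cells touch each other, so fibroblasts and cancer cells were in direct contact. Before lysis the CAFs were sorted by fluorescence, according to the labels, and libraries were made by sonication and ligation. The 393P group is labelled as tCAFs cultured together with the 393P line, and the CAFs alone as tCAFs in culture, with titles that call them CAF-GFP. The labels do not explain the prefix t, the fluorescent marker, the source or passage of the fibroblasts, the ratio of cells or the hours of culture, and they give no genotype. 393P is known as a poorly metastatic mouse lung line, so all cells came from mice. The third group of the same table, CAFs aggregated with the metastatic line 344SQ (3 libraries), and CAFs grown across a Boyden chamber membrane from 393P or alone (5 biological replicates each) serve only to show where contact with 393P differed. The labels call the replicates biological without naming separate isolates or animals, so p-values measure the spread between these samples, which may be technical.

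Fibroblasts in tumours are described as moving between states. Contractile and matrix-building states are known to follow TGF-beta and integrin signals. Inflammatory states secrete cytokines, chemokines and complement. Fibroblasts next to vessels can take on features of mural cells, the pericytes and smooth muscle cells that wrap the endothelium, and Notch receptors read ligands on touching neighbours. Notch is cut when it binds such a ligand, and its inner part enters the nucleus and switches on Hes and Hey family genes with the DNA-binding partner RBPJ.

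The 393P libraries held 991901 to 1258751 counts and those of CAFs alone 757717 to 1135567, so 1 count was worth about 1 CPM, the unit of counts scaled to a common library total. At such depth a gene of 20 CPM rests on about 20 reads per library. Fibroblast markers summed to 22792 to 24355 CPM with 393P and to 18561 to 21585 CPM in CAFs alone. Fn1 made up most of that sum in every library, and the edgeR test described below did not call it (log2 change 0.14, adjusted p = 0.742). Of the 14 fibroblast markers 13 passed the filter on low counts. That test called 4 of them higher (Col1a1, Pdgfrb, Thy1 and Fap) and 2 lower (Dcn and Pdgfra), and 7 were not called. The 26 carcinoma markers all failed that filter and summed to 32.6 to 108 CPM with 393P and to 22.9 to 30.4 CPM in CAFs alone. The high value came from 393P replicate 3, which held 39 Krt8 and 25 Krt19 counts, against 0 to 2 of each in the other 5 libraries compared. Replicates 1 and 2 of 393P, at 32.6 and 35.7 CPM, also lay above each library of CAFs alone. Epcam had 0 or 1 count in every library. Ptprc, the pan-leukocyte marker, had 0 counts in all of them. Lymphocyte markers summed to 0 to 2.38 CPM with 393P and to 0 to 2.03 CPM in CAFs alone. Macrophage markers summed to 9.06 to 36.3 CPM with 393P and to 29.4 to 50.2 CPM in CAFs alone. Schwann and neural markers summed to 1.59 to 3.62 CPM with 393P and to 4.40 to 14.5 CPM in CAFs alone. Skeletal muscle markers summed to 1.81 to 9.53 CPM with 393P and to 11.4 to 12.2 CPM in CAFs alone. The count of genes called without 393P replicate 3 is given with the first result. The part of carcinoma RNA in the other 393P libraries was not tested.

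Contact with 393P was accompanied by higher RNA of Notch3, Pdgfrb, Heyl and all 3 collagen VI genes tested, and by lower RNA of C3, Cxcl12, Cdkn1a and Pdgfra. edgeR's quasi-likelihood test called 875 of 7992 genes tested, or 10.9%, at a Benjamini-Hochberg adjusted p under 0.05. Log2 changes are given with their standard error (SE). Of the genes called, 448 were higher (5.61% of the genes tested) and 427 were lower (5.34%). Without 393P replicate 3 the test called 779, and without any other library of the 9 in the fit it called 644 to 954. A stricter count holds the genes whose call survived each of the 9 fits with 1 library left out: 478, of which 249 were higher and 229 lower. Members of gene lists that kept their call in all 9 of these fits are counted in parentheses after those called. The lists were chosen with earlier results of these data known, and some genes stand in several lists. Their shares are therefore descriptions and no separate test. A log2 change beyond 1 in either direction was reached by 551 of the 875, 255 higher and 296 lower, and one beyond 2 by 150. Libraries of the groups did not overlap for 849 of the 875, and over all genes tested they did not overlap for 2081, or 26%. The median log2 change over all 7992 genes was -0.00228. Because these are bulk libraries, fewer cells of a type and less RNA per cell cannot be told apart.

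**Figure D1:**
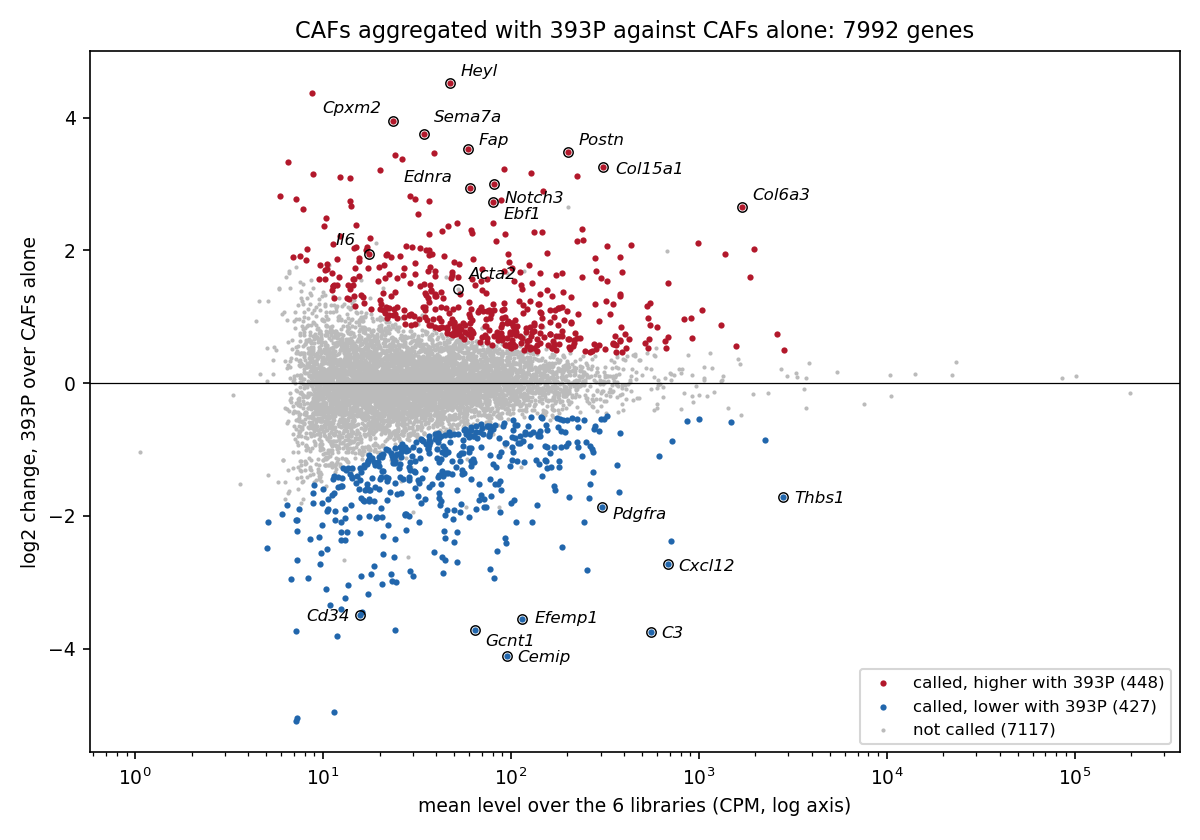
Log2 change of each of the 7992 genes tested in CAFs with 393P relative to CAFs alone (vertical axis) against its mean level over the 6 libraries in CPM (horizontal log axis); filled points are the 875 genes called, 448 above 0 and 427 below. Named points are genes described in the text, with Heyl and Fap at the upper edge and Cemip and C3 at the lower edge.

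Among the 15 largest rises with separate libraries and a mean of at least 5 CPM were genes of Notch signalling, of axon guidance, of matrix and of smooth muscle. Positions are given on GRCm38 (mm10) from GENCODE M21. Heyl, a transcriptional repressor that Notch switches on (ENSMUSG00000032744.4, chromosome 4, 123233556 to 123249875), stood at 74.1, 130.0 and 68.96 CPM in the 393P libraries, against 0, 3.96 and 8.36 CPM in CAFs alone, a log2 change of 4.53 ± 0.45 (SE; adjusted p = 2.02e-08). One library of CAFs alone had no read of it. Cpxm2, a carboxypeptidase-like secreted protein (ENSMUSG00000030862.13, chromosome 7, 132032687 to 132154739), stood at 32.8, 57.9 and 42.8 CPM with 393P, against 1.72, 2.64 and 4.18 CPM in CAFs alone (3.94 ± 0.43). Sema7a, a membrane-anchored semaphorin that binds integrins (ENSMUSG00000038264.7, chromosome 9, 57940112 to 57962865), stood at 66.6, 53.9 and 70.000 CPM with 393P, against 1.72, 9.25 and 4.18 CPM in CAFs alone (3.75 ± 0.38). For both genes the lowest 393P library stood at several times the highest library of CAFs alone. Fap, the serine protease used to mark activated fibroblasts (ENSMUSG00000000392.17, chromosome 2, 62500943 to 62574075), stood at 132, 88.8 and 106 CPM in the 393P libraries, against 9.48, 5.29 and 12.5 CPM in CAFs alone (3.52 ± 0.29; adjusted p = 1.92e-12). Robo1, a receptor of Slit guidance cues, stood at 29.1, 74.5 and 39.7 CPM with 393P, against 1.72, 3.96 and 8.36 CPM in CAFs alone (3.37 ± 0.46), with 393P replicate 2 above the other 2. The calcium-activated chloride channel Ano1, which is used to mark pacemaker and smooth muscle cells, stood at 26.3, 43.6 and 39.7 CPM with 393P, against 3.45, 3.96 and 4.18 CPM in CAFs alone (3.22 ± 0.45). Slco4a1, an organic anion and thyroid hormone transporter, stood at 199, 159 and 137 CPM in the 393P libraries, against 12.1, 18.5 and 22.998 CPM in CAFs alone (3.23 ± 0.23; adjusted p = 4.56e-14). Postn and Col15a1 were also among the 15, with Olfml2a, Gm36988, Gfra2, Col5a3 and Syn1. Foxs1, a forkhead factor known from pericytes and neural crest derivatives, had 14, 21 and 20 counts with 393P, against 1, 0 and 1 counts in CAFs alone, a ratio of 24.1 with a counting interval of 6.35 to 204. Gfra2, a receptor of the neurturin growth factor, had 13, 11 and 14 counts with 393P, against 0, 1 and 2 counts in CAFs alone, a ratio of 11.1 with a counting interval of 3.52 to 56.1.

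The largest falls included genes of hyaluronan breakdown, glycan branching, steroid metabolism and complement. The membrane glycoprotein gene Emb had 0, 0 and 1 counts with 393P, against 15, 13 and 12 counts in CAFs alone, a ratio of 0.0219 with a counting interval of 0.000541 to 0.129. Pkia, an inhibitor of protein kinase A, had 0, 1 and 0 counts with 393P, against 21, 8 and 13 counts in CAFs alone, a ratio of 0.0208 with a counting interval of 0.000515 to 0.123. Atp1b1, a beta subunit of the sodium pump, had 2, 0 and 0 counts with 393P, against 34, 15 and 17 counts in CAFs alone, a ratio of 0.0265 with a counting interval of 0.00315 to 0.0997. All 3 genes were at or near 0 counts with 393P, and the sizes of their changes are loose for that reason. Cemip, which starts the breakdown of hyaluronan (ENSMUSG00000052353.13, chromosome 7, 83932857 to 84086502), stood at 12.2, 11.1 and 7.31 CPM with 393P, against 177, 189 and 177 CPM in CAFs alone, a log2 change of -4.11 ± 0.26 (adjusted p = 1.03e-15). Its levels were tight within each group and far apart between the groups. Gcnt1, which branches O-linked glycans, stood at 7.51, 15.1 and 3.13 CPM with 393P, against 75.8, 120.3 and 165 CPM in CAFs alone (-3.71 ± 0.34). Aox3, an aldehyde oxidase, stood at 4.69, 2.38 and 3.13 CPM in the 393P libraries, against 47.4, 30.4 and 57.5 CPM in CAFs alone (-3.72 ± 0.41). Cyp7b1, which hydroxylates oxysterols, stood at 0, 3.17 and 1.04 CPM with 393P, against 24.1, 15.9 and 27.2 CPM in CAFs alone (-3.80 ± 0.58), and both genes were low in each 393P library. Cd34, a sialomucin of adventitial fibroblasts and progenitor cells, stood at 4.69, 1.59 and 1.04 CPM with 393P, against 26.7, 39.6 and 20.9 CPM in CAFs alone (-3.49 ± 0.54). Sorl1, a sorting receptor, changed by -3.24 ± 0.53 and Frmd5, a FERM domain protein, by -3.35 ± 0.60. Nckap5 had 1, 2 and 0 counts with 393P, against 14, 9 and 16 counts in CAFs alone, a ratio of 0.0673 with a counting interval of 0.0133 to 0.212. C3 and Efemp1, Prune2 and Eya4 completed the 15, and the log2 changes of Prune2 (-3.45) and Eya4 (-3.40) went to -7.90 and -5.25 without 393P replicate 2, the only 393P library with more than 1 count of either gene.

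Notch receptor genes moved both ways, and the Notch targets that were called all rose. Of 4 Notch ligands and receptors tested, 3 rose and 1 fell (2 and 1 kept the call), with a median log2 change of 1.09. Notch3, the receptor of vascular smooth muscle and pericytes, stood at 129, 162 and 146 CPM in the 393P libraries, against 17.2, 15.9 and 20.9 CPM in CAFs alone (3.002 ± 0.23; adjusted p = 3.98e-13). Notch1, the more widely used receptor, stood at 196, 232 and 188 CPM with 393P, against 55.1, 80.6 and 109.8 CPM in CAFs alone (1.34 ± 0.21). Notch2 went the other way, at 144, 152 and 169 CPM with 393P, against 335, 287 and 280.2 CPM in CAFs alone (-0.96 ± 0.16; adjusted p = 1.21e-05). The 393P libraries thus held more Notch1 and Notch3 RNA and less Notch2 RNA than any library of CAFs alone. The ligand gene Jag1 stood at 107, 116 and 116 CPM in the 393P libraries, against 50.8, 85.9 and 55.4 CPM in CAFs alone (0.84 ± 0.23), a call that was lost without CAFs alone replicate 1 (0.68) or replicate 3 (0.74). Of 6 Notch targets tested, 3 rose and 0 fell (3 and 0 kept the call), with a median log2 change of 1.11. They were Heyl, Hes1, the general Notch target among the Hes repressors, and Pdgfrb. Hes1 stood at 30.02, 38.1 and 37.6 CPM with 393P, against 17.2, 13.2 and 9.41 CPM in CAFs alone (1.38 ± 0.32), with every 393P library above the range of CAFs alone. Of 18 genes that process Notch or regulate it, 0 rose and 1 fell (0 and 0 kept the call), with a median log2 change of 0.10, which is 5.56% called, under the 10.9% of all genes. The call of the one that fell, the sheddase gene Adam10 (-0.65 ± 0.19), did not survive leaving out replicate 1 (-0.50) or 3 (-0.64) of CAFs alone, or replicate 2 (-0.61) or 3 (-0.52) of 393P. Of the 10 Notch list genes tested, 4 had a window of the 150 bases upstream of the RefSeq start in the table used. These were the receptor and ligand genes Notch1, Notch2, Notch3 and Jag1, so no Notch target was examined. None of the 4 held TGGGAA, the core bound by RBPJ, on either strand. Of these 4 windows, 3 reach into an exon of their gene in GENCODE M21. Over all windows 13.1% held it. The absence says only that these letters are not in this window.

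**Figure D2:**
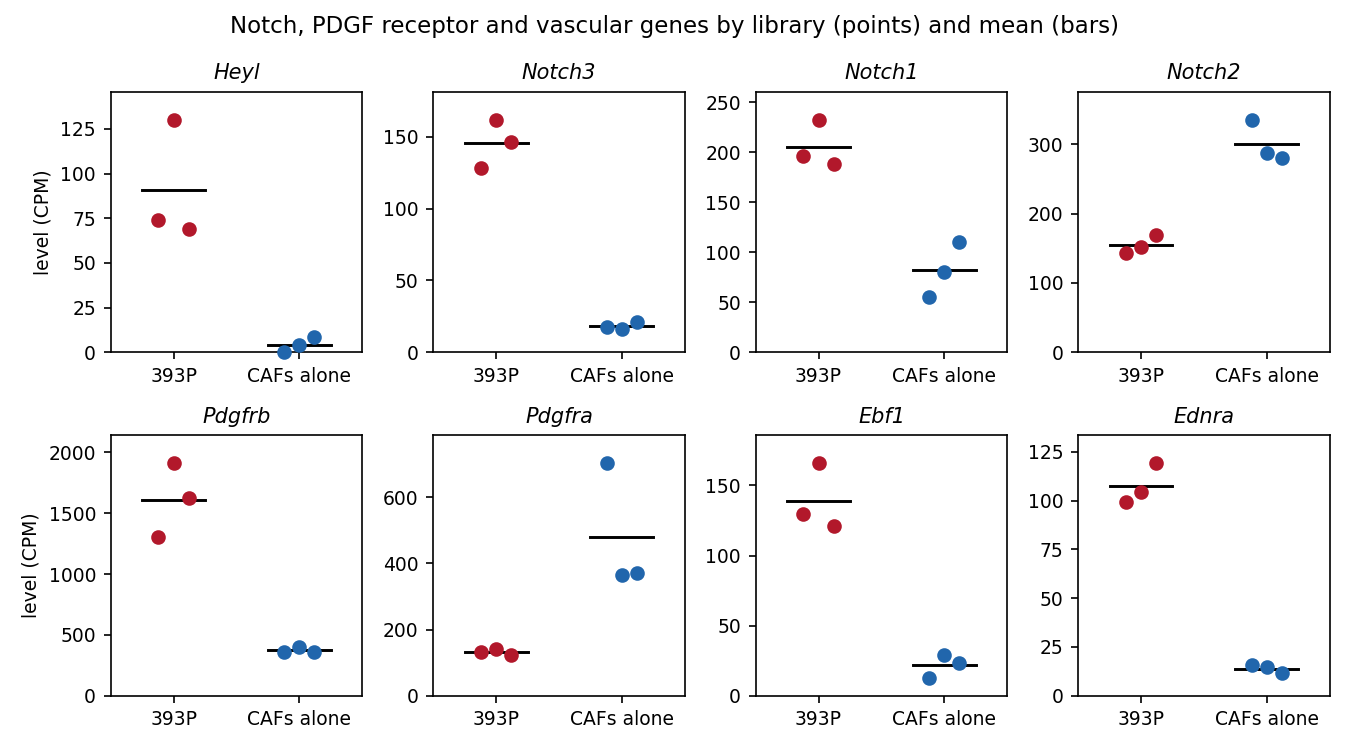
Levels in CPM (vertical axes, each from 0) of 8 receptor, target and vascular genes in the 3 libraries of CAFs with 393P (left in each panel) and the 3 of CAFs alone (right); points are libraries and bars are means. Heyl, Notch3, Notch1, Pdgfrb, Ebf1 and Ednra lie higher with 393P, and Notch2 and Pdgfra lie lower, with no library of one group inside the other.

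Some mural cell markers rose, and most had few or no counts. Mural markers summed to 1449 to 2228 CPM with 393P and to 386 to 428 CPM in CAFs alone, and 7 of the 12 had at most 2 counts in any of the 6 libraries. Pdgfrb, which is also on the fibroblast marker list, made up most of that sum in every library. The 3 that were tested, Notch3, Pdgfrb and Cspg4, all rose and kept that call in each fit with 1 library left out. Pdgfrb, the PDGF receptor of pericytes and activated fibroblasts (ENSMUSG00000024620.11, chromosome 18, 61045150 to 61085061), stood at 1302, 1909 and 1625 CPM with 393P, against 359, 399 and 359 CPM in CAFs alone (2.12 ± 0.17; adjusted p = 4.81e-13). Cspg4, the NG2 proteoglycan of pericytes, stood at 60.04, 102 and 30.3 CPM in the 393P libraries, against 11.2, 6.61 and 10.5 CPM in CAFs alone (2.74 ± 0.39). For neither gene did a 393P library fall within the range of CAFs alone. The sister receptor Pdgfra, which marks tissue fibroblasts, fell: it stood at 131, 140.4 and 124 CPM with 393P, against 702, 365 and 370.1 CPM in CAFs alone (-1.86 ± 0.24; adjusted p = 4.16e-05). Its highest level, in CAFs alone replicate 1, stood apart from the other libraries of that group, which still lay well above all of 393P. Ebf1, a transcription factor of pericytes and adipose precursors (ENSMUSG00000057098.14, chromosome 11, 44617317 to 45008091), stood at 129, 166 and 121 CPM with 393P, against 12.9, 29.1 and 22.998 CPM in CAFs alone (2.73 ± 0.25; adjusted p = 4.08e-11). Ednra, the endothelin receptor of smooth muscle (ENSMUSG00000031616.7, chromosome 8, 77663031 to 77724464), stood at 99.4, 105 and 119 CPM in the 393P libraries, against 15.5, 14.5 and 11.5 CPM in CAFs alone (2.94 ± 0.27; adjusted p = 2.58e-11). Both were several times higher in each 393P library. Of 20 G protein-coupled receptor and vasoactive genes tested, 5 rose and 3 fell (4 and 2 kept the call), with a median log2 change of 0.06. The thrombin receptor gene F2r stood at 246, 301 and 243 CPM with 393P, against 84.4, 102 and 70.04 CPM in CAFs alone (1.64 ± 0.17), and the natriuretic peptide clearance receptor gene Npr3 stood at 368, 236 and 251 CPM with 393P, against 111, 81.9 and 73.2 CPM in CAFs alone (1.67 ± 0.25). Lpar1, a lysophosphatidic acid receptor, stood at 41.3, 46.8 and 45.97 CPM in the 393P libraries, against 187, 124 and 153 CPM in CAFs alone (-1.80 ± 0.21), and S1pr1, a sphingosine 1-phosphate receptor, stood at 4.69, 6.34 and 5.22 CPM with 393P, against 41.4, 19.8 and 16.7 CPM in CAFs alone (-2.26 ± 0.45). Those lipid receptors were lower with 393P in every library.

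Ion channel and transporter genes moved both ways. Of 16 channel and transporter genes tested, 5 rose and 2 fell (4 and 1 kept the call), with a median log2 change of 0.44. Cacna1c, the pore of the L-type calcium channel, stood at 560.1, 571 and 435 CPM with 393P, against 119, 132 and 124 CPM in CAFs alone (2.06 ± 0.17; adjusted p = 2.44e-12). Piezo2, a mechanically gated channel, stood at 108, 49.2 and 77.3 CPM in the 393P libraries, against 19.8, 15.9 and 8.36 CPM in CAFs alone (2.37 ± 0.42). Gja1, the gap junction protein connexin 43, went the other way at 30.02, 9.52 and 19.9 CPM with 393P, against 56.01, 55.5 and 56.4 CPM in CAFs alone (-1.52 ± 0.29). Groups were separate for each of these channels. Of 20 contractile genes tested, 4 rose and 1 fell (3 and 1 kept the call), with a median log2 change of 0.26, which is 25% called. Acta2, the smooth muscle actin used to mark myofibroblasts, stood at 30.96, 76.9 and 121 CPM with 393P, against 12.1, 15.9 and 57.5 CPM in CAFs alone (1.41 ± 0.78) and was not called (adjusted p = 0.382), and 393P replicate 1 lay below CAFs alone replicate 3. Tpm4, a tropomyosin, stood at 219, 236 and 258 CPM in the 393P libraries, against 143, 153 and 115 CPM in CAFs alone (0.79 ± 0.16), Cald1, caldesmon, changed by 0.67 ± 0.15, and Zyx, the focal adhesion protein zyxin, fell by 0.88 on the log2 scale. Of 19 targets of the tension-sensing factors SRF and YAP, 4 rose and 1 fell (2 and 1 kept the call), with a median log2 change of 0.23. Flt1, a VEGF receptor and the only endothelial marker of 12 that was tested, stood at 362, 518 and 329 CPM with 393P, against 32.7, 51.5 and 56.4 CPM in CAFs alone (3.12 ± 0.48; adjusted p = 0.00549). Endothelial markers summed to 324 to 525 CPM with 393P and to 39.6 to 60.8 CPM in CAFs alone, and 9 of them had at most 2 counts in each library, so Flt1 made up nearly all of that sum.

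Collagen genes changed by type. All 3 collagen VI chains tested rose and kept that call whichever library was left out. Col6a3 stood at 3009, 2926 and 2814 CPM with 393P, against 458, 538 and 392 CPM in CAFs alone (2.66 ± 0.18; adjusted p = 6.96e-15), Col6a2 changed by 2.02 ± 0.17 and Col6a1 by 1.60 ± 0.18. These chains form the beaded filaments around cells, and each of their 393P libraries lay above all libraries of CAFs alone. Of 7 fibrillar collagens tested, 4 rose and 0 fell (4 and 0 kept the call), with a median log2 change of 0.87. Col5a3 stood at 259.9, 208 and 221 CPM in the 393P libraries, against 22.4, 30.4 and 25.1 CPM in CAFs alone (3.16 ± 0.21). Col5a1, Col5a2 and Col1a1, chains of the common fibrils, changed by 0.73 ± 0.15, 0.88 ± 0.16 and 0.87 ± 0.17. Other chains of such fibrils, Col1a2 (0.04, adjusted p = 0.935) and Col3a1 (0.36, adjusted p = 0.559), were not called by edgeR. In the basement membrane, collagen IV genes moved both ways. Col4a1 and Col4a2, the widespread pair, stood at 495, 755 and 541 CPM with 393P, against 143, 159.9 and 178 CPM in CAFs alone (1.90 ± 0.17) and at 488, 633 and 515 CPM with 393P, against 202, 251 and 209 CPM in CAFs alone (1.31 ± 0.16). Col4a5 and Col4a6, which pair in specialised basement membranes, stood at 11.3, 9.52 and 12.5 CPM in the 393P libraries, against 57.7, 40.97 and 32.4 CPM in CAFs alone (-1.99 ± 0.32) and at 6.57, 6.34 and 8.36 CPM with 393P, against 41.4, 60.8 and 51.2 CPM in CAFs alone (-2.83 ± 0.36). No library crossed between the groups for any of these 4 chains. Each pair lies head to head on its chromosome: Col4a1 and Col4a2 on chromosome 8 are neighbours on opposite strands, as are Col4a5 and Col4a6 on X. Over the 7 basement membrane collagens tested, 5 rose and 2 fell (4 and 2 kept the call), with a median log2 change of 1.90. Of 3 other collagens tested, none was called by edgeR or DESeq2, and 1 had an unadjusted p under 0.05. Of 11 laminins and linkers tested, 2 rose and 3 fell (1 and 2 kept the call), with a median log2 change of -0.17. Lama4, the laminin chain of vessel walls, changed by 0.95 ± 0.16, and Lama2, the chain of muscle and peripheral nerve, by -1.65 ± 0.33. The linker nidogen, Nid1, stood at 1919, 1465 and 1427 CPM with 393P, against 2569, 2715 and 3445 CPM in CAFs alone (-0.86 ± 0.18). It was 1 of the 5 genes with the most reads among those that fell.

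**Figure D3:**
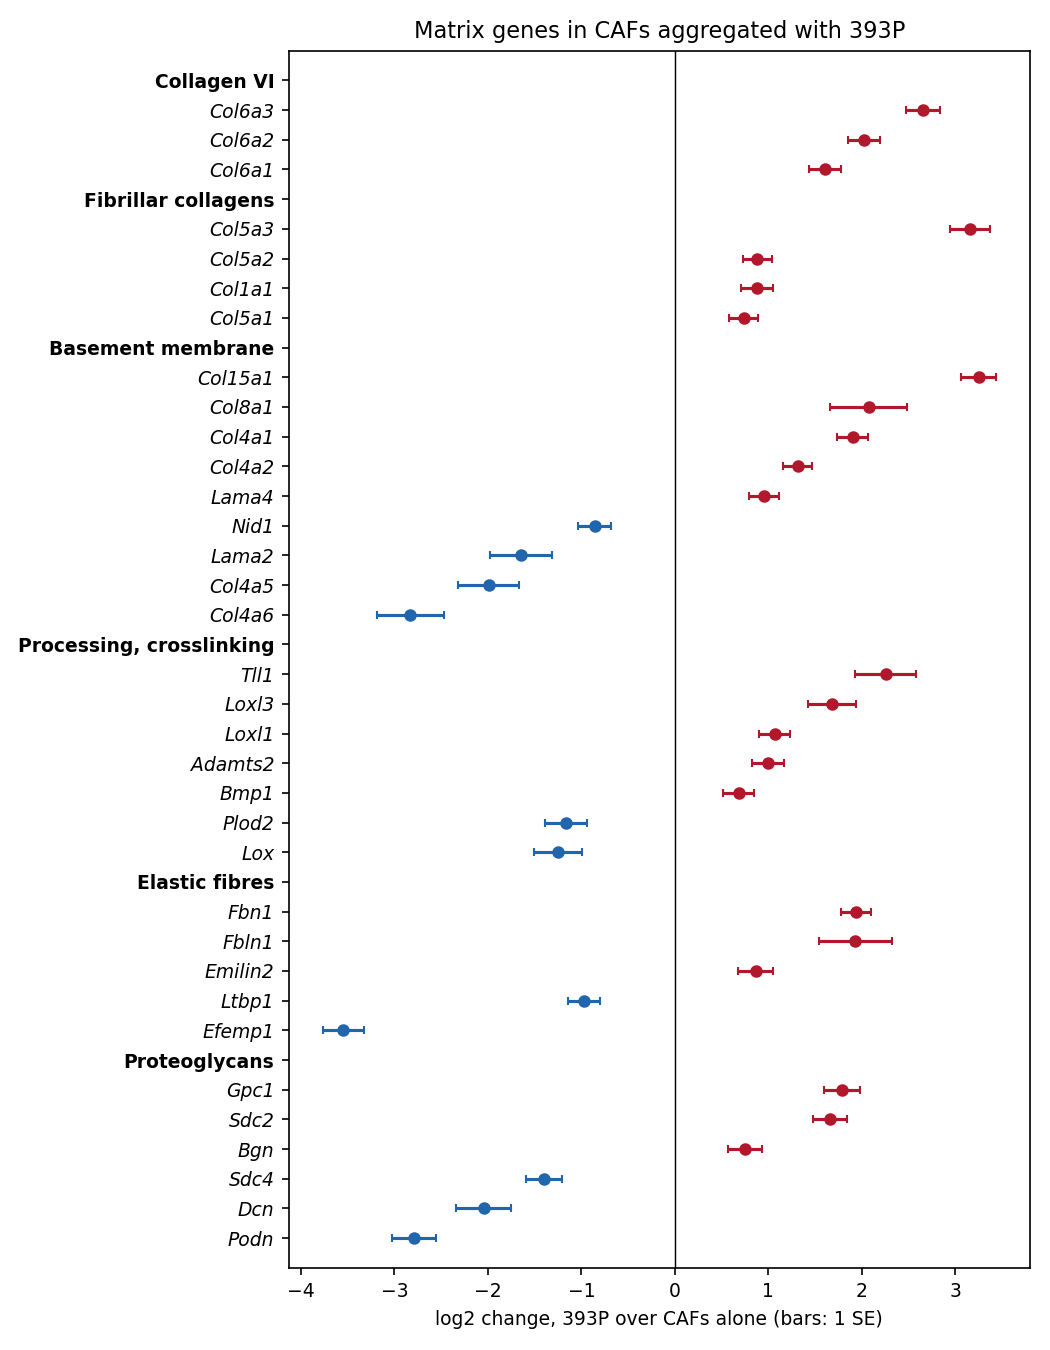
Log2 change in CAFs with 393P relative to CAFs alone (horizontal axis) of collagen, crosslinking, elastic fibre and proteoglycan genes (rows), with bars of 1 SE from edgeR; every gene drawn was called. Col4a1 and Col4a2 lie right of 0 and Col4a5 and Col4a6 left of it, and Loxl1 and Loxl3 lie right where Lox lies left.

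Enzymes that finish collagen split as well. Of 27 processing and crosslinking genes tested, 5 rose and 2 fell (5 and 2 kept the call), with a median log2 change of 0.20, which is 25.9% called. The lysyl oxidase relatives Loxl3 and Loxl1 stood at 79.7, 81.7 and 59.6 CPM in the 393P libraries, against 17.2, 33.04 and 20.9 CPM in CAFs alone (1.68 ± 0.26) and at 186, 201 and 190.1 CPM with 393P, against 97.4, 100.4 and 78.4 CPM in CAFs alone (1.07 ± 0.17). Lox itself stood at 31.9, 30.9 and 49.1 CPM with 393P, against 128, 54.2 and 76.3 CPM in CAFs alone (-1.25 ± 0.26), and the lysyl hydroxylase Plod2 stood at 91.9, 67.4 and 39.7 CPM in the 393P libraries, against 188, 109.7 and 148 CPM in CAFs alone (-1.17 ± 0.22). Tll1, a protease of the procollagen C-end, stood at 60.04, 68.99 and 52.2 CPM with 393P, against 12.1, 19.8 and 7.32 CPM in CAFs alone (2.25 ± 0.33). Bmp1, the founding member of that protease family, changed by 0.68 ± 0.16, and Adamts2, which trims the N-end of procollagen, by 0.998 ± 0.17. Crosslinkers of one family thus moved both ways, and each of these 7 genes kept its call in each fit with 1 library left out. Elastic fibre genes did the same: of 12 tested, 4 rose and 3 fell (3 and 2 kept the call), with a median log2 change of 0.04. Fbn1, the fibrillin of microfibrils, stood at 2140.0, 2296 and 2092 CPM with 393P, against 557, 584 and 560.3 CPM in CAFs alone (1.94 ± 0.16), although 20.1% of its exon bases are shared with a gene on the opposite strand. Fbln1, a fibulin, changed by 1.93 ± 0.39. Efemp1, another fibulin, stood at 17.8, 19.03 and 16.7 CPM in the 393P libraries, against 248, 172 and 210.1 CPM in CAFs alone (-3.55 ± 0.22; adjusted p = 5.1e-16), and Ltbp1, which tethers latent TGF-beta to microfibrils, stood at 114, 122 and 141 CPM with 393P, against 265, 241 and 229 CPM in CAFs alone (-0.97 ± 0.17).

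Matricellular proteins signal to cells from the matrix. Of 18 tested, 5 rose and 3 fell (5 and 3 kept the call), with a median log2 change of 0.41. Postn, periostin, stood at 367, 337 and 411 CPM with 393P, against 36.2, 33.04 and 29.3 CPM in CAFs alone (3.49 ± 0.19) and had the smallest adjusted p of all genes (2.37e-17). Spp1, osteopontin, stood at 453, 361 and 389 CPM in the 393P libraries, against 87.9, 70.05 and 79.4 CPM in CAFs alone (2.33 ± 0.18), and Igfbp7 stood at 102, 113 and 88.8 CPM with 393P, against 27.6, 44.9 and 43.9 CPM in CAFs alone (1.41 ± 0.22). Thbs1, thrombospondin 1, stood at 1653, 1144 and 1171 CPM with 393P, against 3146, 5409 and 4404 CPM in CAFs alone (-1.71 ± 0.20), and it had the most reads of the genes that fell. Smoc1, a calcium-binding matrix protein, changed by -2.39 ± 0.28, and Tnxb, tenascin X, by -2.02 ± 0.24. Of 13 proteoglycans tested, 3 rose and 3 fell (3 and 3 kept the call), with a median log2 change of 0.05. Biglycan and decorin, which are close relatives, parted: Bgn stood at 3194, 3752 and 2825 CPM in the 393P libraries, against 1678, 2128 and 2015 CPM in CAFs alone (0.75 ± 0.18) and Dcn at 9.38, 26.96 and 20.9 CPM with 393P, against 85.3, 76.7 and 77.4 CPM in CAFs alone (-2.04 ± 0.29). The syndecans parted too, with Sdc2 at 274, 185 and 190.1 CPM with 393P, against 68.1, 68.7 and 67.9 CPM in CAFs alone (1.66 ± 0.18) and Sdc4 at 77.9, 71.4 and 91.9 CPM in the 393P libraries, against 193, 235 and 210.1 CPM in CAFs alone (-1.40 ± 0.19). Gpc1, a glypican, changed by 1.79 ± 0.19, and Podn, podocan, by -2.79 ± 0.23. For each pair the libraries of the groups lay apart.

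Genes of matrix-cutting enzymes moved both ways. Of 22 metalloproteinases and inhibitors tested, 1 rose and 7 fell (1 and 4 kept the call), with a median log2 change of -0.19. The aggrecanase genes moved apart, with Adamts1 at 82.6, 97.5 and 100.3 CPM with 393P, against 375, 344 and 471 CPM in CAFs alone (-2.09 ± 0.17; adjusted p = 1.92e-12), Adamts5 changing by -2.86 ± 0.31 and Adamts4 by 1.58 ± 0.36. Adamtsl3, a related protein without protease activity, changed by -2.93 ± 0.28, and the stromelysin Mmp11 by -1.52 ± 0.24. Of 16 serine protease and serpin genes tested, 5 rose and 1 fell (5 and 1 kept the call), with a median log2 change of 0.16. Besides Fap these were Plat, the tissue plasminogen activator (1.11 ± 0.20), Serpine2, an inhibitor of thrombin and of plasminogen activators (2.41 ± 0.34), Serpinf1, which encodes PEDF (1.05 ± 0.19), and the proprotein convertase Furin (1.08 ± 0.17). Serpina3n, an acute phase serpin, stood at 75.1, 76.9 and 34.5 CPM with 393P, against 333, 485 and 512 CPM in CAFs alone (-2.81 ± 0.26), and it has close paralogs that could share its reads. Of 6 genes of hyaluronan turnover tested, 1 rose and 2 fell (1 and 2 kept the call), with a median log2 change of -0.39. Tmem2, a cell surface hyaluronidase, changed by 1.24 ± 0.18, while Cemip and Tnfaip6 (-2.09 ± 0.49), which binds hyaluronan, fell.

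Integrin genes that were called all rose, and guidance genes moved both ways. Of 8 integrins tested, 5 rose and 0 fell (4 and 0 kept the call), with a median log2 change of 0.96, which is 62.5% called. Itgb3 and Itgb5, partners of the alpha V chain, stood at 46.9, 55.5 and 39.7 CPM in the 393P libraries, against 5.17, 21.1 and 10.5 CPM in CAFs alone (2.05 ± 0.34) and at 192, 207 and 188 CPM with 393P, against 105, 75.3 and 114 CPM in CAFs alone (0.98 ± 0.17). Itga5, the fibronectin receptor chain, changed by 0.94 ± 0.17, and Itga6, a laminin receptor chain, by 1.59 ± 0.35. Of 14 cadherins and protocadherins tested, 2 rose and 2 fell (1 and 1 kept the call), with a median log2 change of 0.13. Cdh11, the mesenchymal cadherin, stood at 225, 274 and 159.8 CPM with 393P, against 45.7, 43.6 and 47.04 CPM in CAFs alone (2.27 ± 0.21; adjusted p = 1.24e-10), against a fall of Pcdh7, a protocadherin (-1.55 ± 0.17), although 21.1% of its exon bases are shared with a gene on the opposite strand. Of 16 axon guidance receptors tested, 4 rose and 3 fell (4 and 2 kept the call), with a median log2 change of -0.10. Nrp1 and Nrp2, co-receptors of semaphorins and VEGF, stood at 134, 166 and 119 CPM in the 393P libraries, against 35.3, 55.5 and 41.8 CPM in CAFs alone (1.69 ± 0.21) and at 62.9, 60.3 and 58.5 CPM with 393P, against 13.8, 15.9 and 17.8 CPM in CAFs alone (1.94 ± 0.29). The netrin receptor gene Unc5b stood at 510.4, 534 and 393 CPM with 393P, against 124, 217 and 159.9 CPM in CAFs alone (1.54 ± 0.19). All of their 393P libraries lay above those of CAFs alone. Epha7, an ephrin receptor, fell by 2.01 on the log2 scale. Among the 16 ligands tested, 3 rose and 3 fell (2 and 3 kept the call), with a median log2 change of 0.01. Slit2, the ligand of Robo1, stood at 1263, 1323 and 1043 CPM in the 393P libraries, against 478, 709.7 and 658 CPM in CAFs alone (0.98 ± 0.17), and the secreted semaphorin Sema3c stood at 15.01, 20.6 and 48.1 CPM with 393P, against 89.6, 114 and 102 CPM in CAFs alone (-1.89 ± 0.28).

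In growth factor signalling, feedback inhibitors were among the genes that rose. Of 15 Wnt inhibitors and targets tested, 7 rose and 0 fell (4 and 0 kept the call), with a median log2 change of 0.97, which is 46.7% called. Axin2, a feedback inhibitor that Wnt switches on, stood at 75.1, 61.1 and 39.7 CPM with 393P, against 12.9, 7.93 and 21.95 CPM in CAFs alone (2.01 ± 0.31), Nkd2, another such inhibitor, stood at 89.1, 68.99 and 51.2 CPM in the 393P libraries, against 18.96, 15.9 and 19.9 CPM in CAFs alone (1.92 ± 0.35), and Kremen1, a co-receptor of Dickkopf inhibitors, stood at 222, 309 and 208 CPM with 393P, against 71.5, 75.3 and 43.9 CPM in CAFs alone (1.96 ± 0.19). No library crossed between the groups for these 3 genes. Of 13 Wnt ligands and receptors tested, 2 rose and 1 fell (0 and 0 kept the call), with a median log2 change of 0.18, so no call there outlived each left-out library. Of 20 genes of the FGF, HGF and EGF families, 7 rose and 2 fell (4 and 1 kept the call), with a median log2 change of 0.23. The risen genes that kept the call were Spry4 (1.59 ± 0.25), Spred1 (1.504 ± 0.18) and Dusp4 (2.41 ± 0.34), which damp ERK signalling, and the ETS factor Etv4 (2.004 ± 0.29), which ERK switches on. Spred1 stood at 211, 209 and 156 CPM with 393P, against 65.5, 83.3 and 56.4 CPM in CAFs alone, and Dusp4 stood at 87.3, 65.02 and 107 CPM in the 393P libraries, against 10.3, 30.4 and 10.5 CPM in CAFs alone. Met, the HGF receptor, stood at 9.38, 7.93 and 8.36 CPM with 393P, against 23.3, 42.3 and 31.4 CPM in CAFs alone (-1.88 ± 0.37).

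Of 21 TGF-beta ligands, receptors and latent binders tested, 5 rose and 2 fell (4 and 2 kept the call), with a median log2 change of 0.26. Tgfb1 stood at 117, 176 and 164 CPM with 393P, against 40.5, 40.97 and 37.6 CPM in CAFs alone (1.94 ± 0.20; adjusted p = 8.06e-10), its signalling receptor Tgfbr1 changed by 1.15 ± 0.23 and the docking receptor Lrrc32 by 0.92 ± 0.18. The co-receptor betaglycan, Tgfbr3, stood at 147, 132 and 129 CPM in the 393P libraries, against 390.3, 324 and 458 CPM in CAFs alone (-1.52 ± 0.17), so the receptors moved apart. Of 15 targets tested, 4 rose and 0 fell (3 and 0 kept the call), with a median log2 change of 0.43. Pmepa1, a feedback inhibitor of this pathway, stood at 231, 245 and 227 CPM with 393P, against 80.1, 102 and 102 CPM in CAFs alone (1.31 ± 0.16). Of 10 BMP genes tested, 3 rose and 2 fell (2 and 1 kept the call), with a median log2 change of -0.33, with Bmper at -1.22 ± 0.18 and Id3 at 0.85 ± 0.19. Of 8 PDGF and VEGF genes tested, 3 rose and 2 fell (3 and 2 kept the call), with a median log2 change of 0.15. Figf, the VEGF family ligand VEGF-D, stood at 16.9, 11.9 and 7.31 CPM with 393P, against 87.03, 70.05 and 75.3 CPM in CAFs alone (-2.67 ± 0.30). Of 13 genes of the insulin-like growth factor axis tested, 2 rose and 3 fell (2 and 2 kept the call), with a median log2 change of 0.01. Igf1 stood at 15.01, 33.3 and 52.2 CPM in the 393P libraries, against 128, 111 and 93.04 CPM in CAFs alone (-1.74 ± 0.26), and Irs1, the adaptor of its receptor, changed by 1.15 ± 0.17, although 30.9% of its exon bases are shared with a gene on the opposite strand. Of 8 Hedgehog pathway genes tested, 1 rose and 2 fell (0 and 2 kept the call), with a median log2 change of -0.21. The co-receptors Cdon (-1.77 ± 0.39) and Boc (-0.89 ± 0.23) fell and kept that call in each fit with 1 library left out.

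Complement and cytokine genes that were called mostly fell, with Il6 as an exception. Of 10 complement genes tested, 0 rose and 5 fell (0 and 5 kept the call), with a median log2 change of -1.78, which is 50% called. C3, the hub of the cascade (ENSMUSG00000024164.15, chromosome 17, 57203970 to 57228136), stood at 81.6, 110.2 and 34.5 CPM with 393P, against 949.6, 1174 and 984 CPM in CAFs alone (-3.75 ± 0.28; adjusted p = 2.31e-07). C4b, which joins the C3 convertase, stood at 15.01, 7.93 and 18.8 CPM with 393P, against 74.1, 122 and 72.1 CPM in CAFs alone (-2.69 ± 0.30), and the paralog C4a could share its reads. C1s1 and C1ra, proteases that start the classical pathway, changed by -1.69 ± 0.22 and -2.03 ± 0.41. Each 393P library lay below each library of CAFs alone for these 4 genes. Of 21 cytokine and receptor genes tested, 1 rose and 6 fell (1 and 6 kept the call), with a median log2 change of -0.67. The interleukin 1 receptor gene Il1r1 stood at 102, 112 and 101 CPM in the 393P libraries, against 253, 308 and 203 CPM in CAFs alone (-1.27 ± 0.18). Lifr, Osmr and Il6st, the receptor chains of the LIF, oncostatin M and interleukin 6 family, changed by -1.75 ± 0.31, -0.70 ± 0.15 and -0.75 ± 0.16. Il6 itself stood at 36.6, 30.1 and 15.7 CPM with 393P, against 4.31, 11.9 and 6.27 CPM in CAFs alone (1.95 ± 0.43; adjusted p = 0.00104), so the ligand and its shared receptor chain moved in opposite directions. Csf1, the macrophage growth factor, and Kitl, the Kit ligand, fell too, and the log2 change of Kitl (-2.94) was -4.71 without 393P replicate 1. Of 8 chemokines tested, 1 rose and 1 fell (0 and 1 kept the call), with a median log2 change of 0.34. Cxcl12, a chemokine that holds leukocytes and stem cells in place, stood at 172, 209 and 158 CPM with 393P, against 1214, 1108 and 1251 CPM in CAFs alone (-2.73 ± 0.17; adjusted p = 7.06e-16). The one that rose, Cx3cl1 (1.13 ± 0.32), did not keep its call when replicate 1 (1.02) or 3 (1.11) of CAFs alone, or replicate 1 or 2 (1.05 each) of 393P, was left out. Vcam1, an adhesion molecule for leukocytes, stood at 91.9, 121 and 70.000 CPM in the 393P libraries, against 230.1, 186 and 216 CPM in CAFs alone (-1.16 ± 0.19), and Ptgs1, a prostaglandin synthase, changed by -0.99 ± 0.20. Of 17 acute phase and NF-kB genes tested, 0 rose and 2 fell (0 and 2 kept the call), with a median log2 change of -0.26, and of 7 genes of MHC class I and peptide loading, 0 rose and 1 fell (0 and 1 kept the call), with a median log2 change of 0.24. Of 11 interferon response genes tested, 0 rose and 0 fell, with a median log2 change of -0.46, and none was called by edgeR or DESeq2 or had an unadjusted p under 0.05.

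Of 37 transcription factors of mesenchymal cells tested, 12 rose and 2 fell (9 and 2 kept the call), with a median log2 change of 0.45, which is 37.8% called. Prrx1, a homeobox factor of limb and stromal mesenchyme, stood at 1438, 1422 and 1401 CPM with 393P, against 639, 704 and 635 CPM in CAFs alone (1.11 ± 0.16), and Runx2, known from bone, stood at 219.5, 174 and 189 CPM with 393P, against 80.997, 108 and 91.99 CPM in CAFs alone (1.06 ± 0.17). Hmga2, a chromatin protein of growing mesenchyme, stood at 621, 593 and 559 CPM in the 393P libraries, against 175, 252 and 133 CPM in CAFs alone (1.67 ± 0.17; adjusted p = 8.11e-10). Zeb1 stood at 180.1, 179 and 126 CPM with 393P, against 92.2, 89.9 and 88.9 CPM in CAFs alone (0.85 ± 0.17), and Twist1 changed by 1.84 ± 0.39. The 393P libraries of all 5 genes lay above those of CAFs alone. Klf4, a zinc finger factor that responds early to stimuli, stood at 43.2, 48.4 and 47.01 CPM with 393P, against 121, 136 and 129 CPM in CAFs alone (-1.47 ± 0.21). Of the 9 Hox genes tested, which record body position, 0 rose and 0 fell, with a median log2 change of -0.04, and none was called by edgeR or DESeq2 or had an unadjusted p under 0.05.

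Called immediate early genes all fell, and p53 targets mostly did. Of 28 immediate early genes tested, 0 rose and 8 fell (0 and 5 kept the call), with a median log2 change of -0.07. Fos stood at 148, 179 and 129 CPM in the 393P libraries, against 269.7, 333 and 374 CPM in CAFs alone (-1.09 ± 0.19), Fosb at 451, 622 and 449 CPM with 393P, against 876, 882 and 1025 CPM in CAFs alone (-0.87 ± 0.19) and the phosphatase gene Dusp1 at 177, 202 and 158 CPM with 393P, against 313, 374 and 424 CPM in CAFs alone (-1.04 ± 0.17). These genes also respond to dissociation and sorting of cells, and the part of handling was not tested. Of 19 p53 targets tested, 1 rose and 10 fell (0 and 8 kept the call), with a median log2 change of -0.72, which is 57.9% called. The cell cycle inhibitor gene Cdkn1a stood at 84.4, 95.2 and 157 CPM in the 393P libraries, against 232, 260.4 and 259 CPM in CAFs alone (-1.17 ± 0.18), with 393P replicate 3 nearest to CAFs alone. Ccng1 stood at 84.4, 103 and 95.1 CPM with 393P, against 181, 229 and 230.0 CPM in CAFs alone (-1.17 ± 0.19), Zmat3, an RNA-binding growth suppressor, changed by -0.95 ± 0.18 and the death receptor gene Eda2r by -1.39 ± 0.27. Of 18 cell cycle genes tested, 0 rose and 1 fell (0 and 0 kept the call), with a median log2 change of 0.15. The one that fell was Rrm1, a ribonucleotide reductase subunit (-1.04 ± 0.33), and that call did not survive leaving out replicate 1 (-0.87) or 3 (-1.10) of CAFs alone, or replicate 2 (-0.76) or 3 (-1.03) of 393P.

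Cholesterol genes that were called all moved up. Of 23 genes of cholesterol synthesis and uptake tested, 9 rose and 0 fell (5 and 0 kept the call), with a median log2 change of 0.61, which is 39.1% called. Srebf2 encodes the transcription factor that switches this pathway on and stood at 169.8, 179 and 145 CPM with 393P, against 49.98, 93.8 and 88.9 CPM in CAFs alone (1.11 ± 0.19; adjusted p = 2.57e-05). Hmgcs1, which makes the building block of mevalonate, stood at 66.6, 65.02 and 39.7 CPM in the 393P libraries, against 27.6, 15.9 and 22.998 CPM in CAFs alone (1.34 ± 0.28). Sqle and Cyp51, enzymes of the later steps, stood at 64.7, 70.6 and 28.2 CPM with 393P, against 16.4, 23.8 and 19.9 CPM in CAFs alone (1.48 ± 0.31) and at 57.2, 55.5 and 35.5 CPM with 393P, against 12.9, 31.7 and 15.7 CPM in CAFs alone (1.37 ± 0.30). The 393P libraries lay above those of CAFs alone for each, and 393P replicate 3 was the lowest of them in all 4 genes. Hsd17b7, a further enzyme of the late steps, changed by 0.98 ± 0.33, a call that was lost without any one of the 6 libraries compared (0.82 to 1.08). The promoter of Hmgcs1 is shown because the factor encoded by Srebf2 is known to bind sterol elements next to a box for the factor NF-Y. The RefSeq table held the 150 bases upstream of at least 1 start for 16 of the 23 genes, with 21 windows in all, among them 4 of the 9 genes called. Starts differ between annotations, and 12 of the 21 windows reach into an exon of their gene in GENCODE M21. Of the 4 called genes the Hmgcs1 window alone does not. It is read on the strand of the gene from GRCm38.p6, with capitals for a sterol element (TCACNCCAC) or an NF-Y box (CCAAT, or ATTGG where it lies on the other strand).
Hmgcs1 (chr13:119690201-119690350, plus strand): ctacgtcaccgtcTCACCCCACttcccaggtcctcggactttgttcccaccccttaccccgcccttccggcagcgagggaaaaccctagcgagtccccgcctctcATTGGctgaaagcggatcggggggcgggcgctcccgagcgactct

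The NF-Y box lay in a window of 12 of the 16 genes, among them all 4 called, against 27.7% of the 27018 genes in the table, counted on both strands. Most of the genes with a window that were not called held it too. In Cyp51 it lay within a GENCODE exon, as did 1 of 2 in Hsd17b7. Among genes not called, both matches in Dhcr7 and in Msmo1 and 1 of 2 in Npc2 touched such an exon. The sterol element lay in 1 of the 16, Hmgcs1, against 0.755% of genes. These matches describe letters near a start and not bound sites, and they were read from the reference and not from the cells measured. Of 17 fatty acid genes tested, 3 rose and 1 fell (1 and 1 kept the call), with a median log2 change of 0.08. Fads2, a desaturase, changed by 1.09 ± 0.22, and Gpam, which starts glycerolipid synthesis, by -1.81 ± 0.25. Of 14 lipid handling genes tested, 2 rose and 5 fell (1 and 3 kept the call), with a median log2 change of -0.56, with Cpt1a, the gate of fatty acid oxidation in mitochondria, at 90.1, 91.98 and 109 CPM in the 393P libraries, against 230.1, 197 and 268 CPM in CAFs alone (-1.26 ± 0.17).

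Other metabolic and stress lists were mixed. Of 32 glycolysis and hypoxia genes tested, 3 rose and 5 fell (3 and 2 kept the call), with a median log2 change of -0.13. The kinases that set the level of fructose 2,6-bisphosphate parted, with Pfkfb4 at 29.1, 31.7 and 12.5 CPM with 393P, against 6.03, 3.96 and 1.05 CPM in CAFs alone (2.67 ± 0.50) and Pfkfb3 at 19.7, 15.1 and 24.03 CPM with 393P, against 82.7, 58.2 and 75.3 CPM in CAFs alone (-1.90 ± 0.33). Of 24 NRF2 and xenobiotic response genes tested, 6 rose and 1 fell (3 and 1 kept the call), with a median log2 change of 0.19. The aryl hydrocarbon receptor gene Ahr stood at 448, 466 and 401 CPM in the 393P libraries, against 104, 136 and 119 CPM in CAFs alone (1.88 ± 0.16; adjusted p = 7.78e-12), and its target Tiparp stood at 70.4, 53.9 and 51.2 CPM with 393P, against 13.8, 11.9 and 19.9 CPM in CAFs alone (1.93 ± 0.29), while Hmox1, heme oxygenase, changed by -0.88 ± 0.17. Every 393P library lay above every library of CAFs alone for Ahr and Tiparp. Of 29 genes of the unfolded protein and integrated stress responses, 0 rose and 4 fell (0 and 2 kept the call), with a median log2 change of -0.10, and of 14 heat shock and metallothionein genes, 0 rose and 4 fell (0 and 1 kept the call), with a median log2 change of -0.25. Of 27 lysosome and cathepsin genes, 1 rose and 3 fell (0 and 2 kept the call), with a median log2 change of 0.11, with Lgmn, the asparagine protease legumain, at -1.15 ± 0.18. Housekeeping lists held no call by edgeR or by DESeq2: 0 of 43 cytosolic ribosomal protein genes, 0 of 31 nuclear genes of oxidative phosphorylation and 0 of 10 genes encoded in mitochondria. At an unadjusted p under 0.05 stood 2 of the 43, 1 of the 31 and 1 of the 10. Rpl4 stood at 204, 263 and 235 CPM with 393P, against 298, 305 and 214 CPM in CAFs alone (-0.22 ± 0.16; adjusted p = 0.502), and the interval of such a change does not exclude a small difference.

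**Figure D4:**
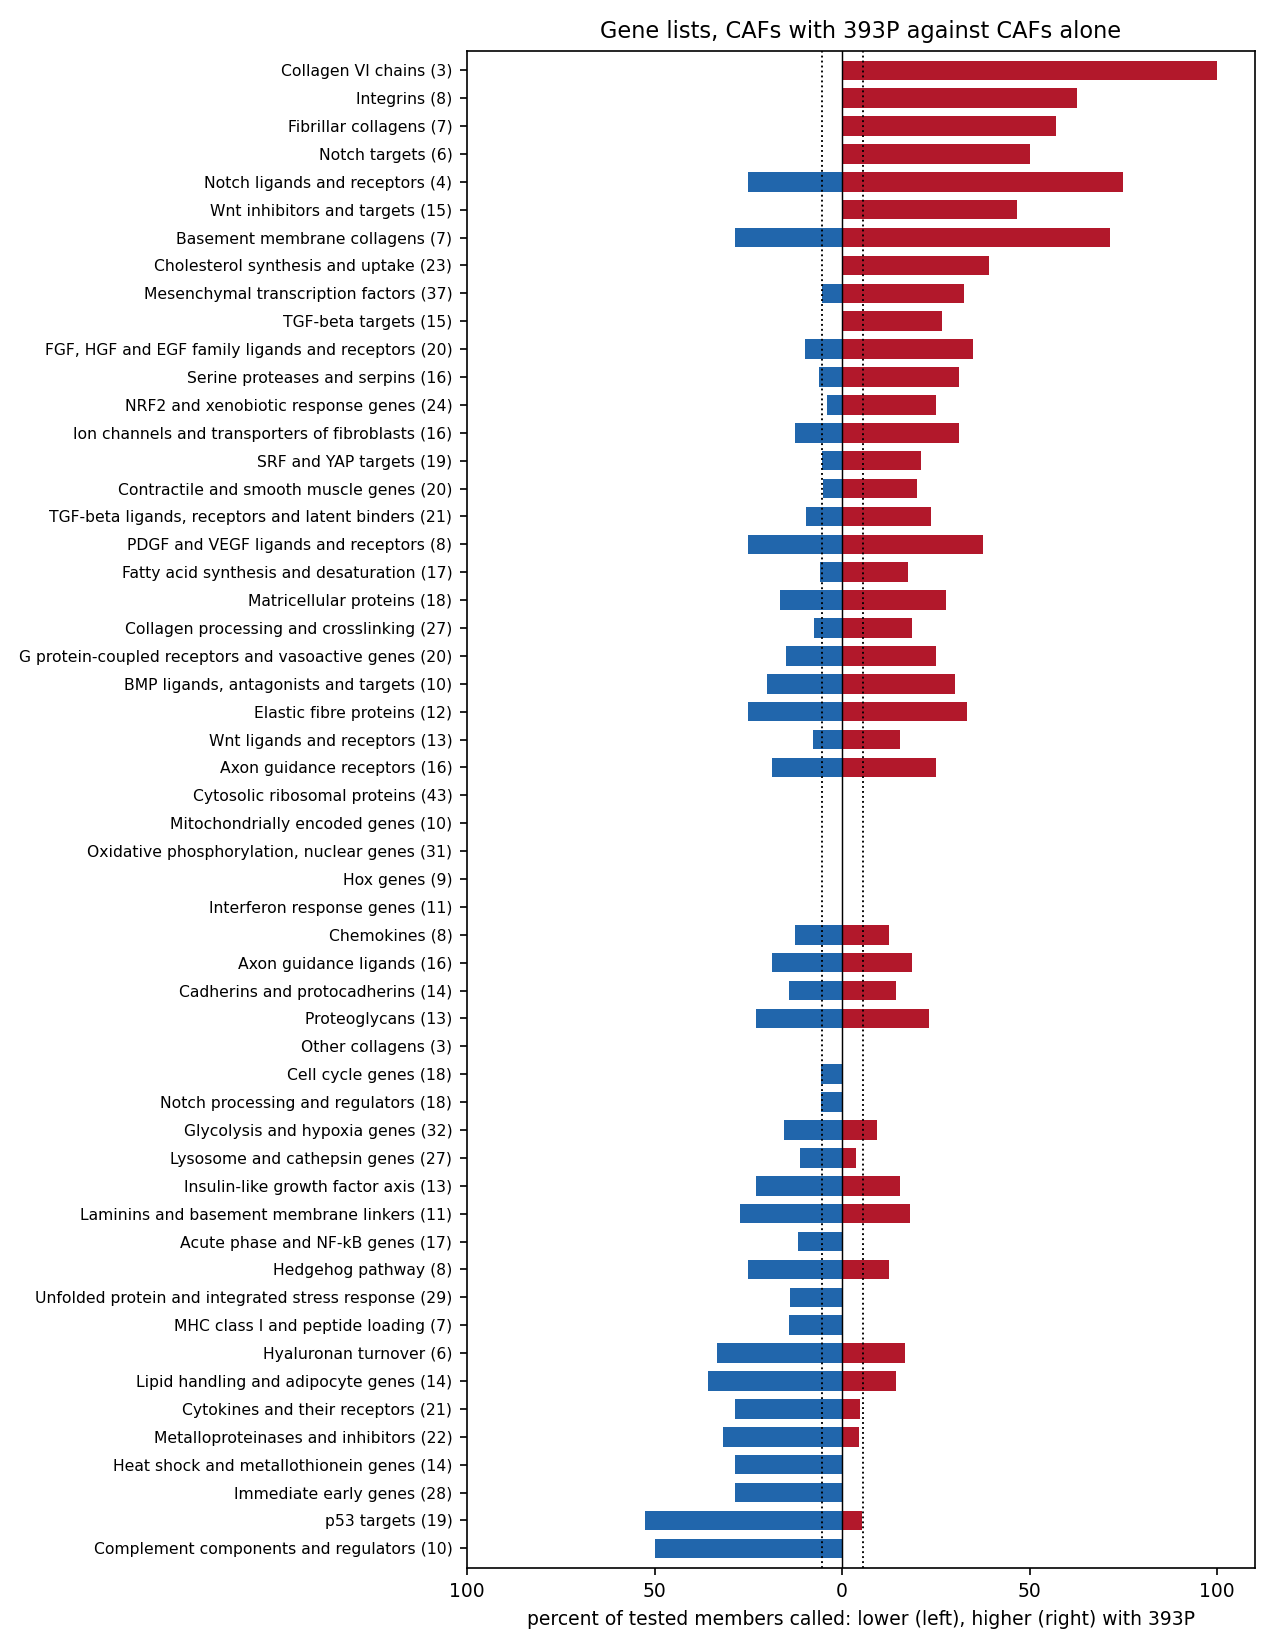
Share of the tested members called higher (right of 0) or lower (left of 0) in CAFs with 393P relative to CAFs alone, in percent, with the number tested after each name, for lists with at least 3 members tested and without the cell type marker lists; dotted lines mark the background of 5.61% higher and 5.34% lower over all genes. Of these lists, collagen VI, Notch ligand and receptor, basement membrane collagen and integrin lists reach farthest right, and p53 and complement lists farthest left. The lists were chosen with earlier results of these data known.

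The direct comparison with 344SQ asked which levels depended on the line in the aggregate. The test called 335 of 7992 genes, or 4.19%, with 153 higher with 393P (1.91%) and 182 lower (2.28%), and 79 and 85 of these calls survived each left-out library. Both comparisons share the 393P libraries. Postn stood at 367, 337 and 411 CPM with 393P, against 30.8, 31.5 and 18.7 CPM with 344SQ, and the log2 difference was 3.79 ± 0.20 (adjusted p = 3.26e-18). Heyl stood at 74.1, 130.0 and 68.96 CPM with 393P, against 2.06, 2.42 and 0.933 CPM with 344SQ (5.62 ± 0.52), and Ebf1 at 129, 166 and 121 CPM with 393P, against 14.4, 19.4 and 9.33 CPM with 344SQ (3.30 ± 0.27). Ednra stood at 99.4, 105 and 119 CPM with 393P, against 19.5, 13.3 and 9.33 CPM with 344SQ (2.93 ± 0.27) and Col15a1 at 575, 526 and 565 CPM with 393P, against 87.4, 73.95 and 66.2 CPM with 344SQ (2.87 ± 0.18). For these 5 genes each 393P library lay above every 344SQ library. Notch3 differed between the lines by 2.76 ± 0.23, Notch1 by 1.36 ± 0.20, Notch2 by -0.92 ± 0.16 and Jag1 by 1.52 ± 0.24. Differences between the lines were also called for Col6a3 (2.20 ± 0.18), Col4a1 (1.64 ± 0.17), Fap (2.40 ± 0.26) and Adamts1 (-2.15 ± 0.17). Lower with 393P than with 344SQ were Aox3 at 4.69, 2.38 and 3.13 CPM with 393P, against 18.5, 42.4 and 29.9 CPM with 344SQ (-3.11 ± 0.44), Cyp7b1 (-2.86 ± 0.63), Eya4 (-2.66 ± 0.62), Ildr2, an angulin of tricellular junctions (-2.53 ± 0.46), and Gdpd2, a glycerophosphodiesterase, at 0.938, 0 and 5.22 CPM with 393P, against 20.6, 23.04 and 24.3 CPM with 344SQ (-3.52 ± 0.59). Between the lines the value of Eya4 went to -4.49 without 393P replicate 2 and that of Gdpd2 to -5.36 without 393P replicate 3.

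For other genes that changed with 393P no difference from 344SQ was called. Axin2 stood at 75.1, 61.1 and 39.7 CPM with 393P, against 54.5, 77.6 and 55.97 CPM with 344SQ (log2 difference -0.08 ± 0.25, adjusted p = 0.947). Ahr (-0.09 ± 0.15), Cxcl12 (-0.24 ± 0.17) and Hmga2 (0.12 ± 0.16) were not called between the lines either. The 95% intervals of these log2 differences ran from -0.59 to 0.43 for Axin2, from -0.39 to 0.22 for Ahr, from -0.59 to 0.10 for Cxcl12 and from -0.21 to 0.45 for Hmga2, so a difference within them was not excluded.

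Across the membrane of a Boyden chamber, where 393P cells and CAFs share medium and do not touch, the changes called with the same line were smaller. There the test called 2189 of 14040 genes, or 15.6%, with 1078 higher (7.68%) and 1111 lower (7.91%). The spread between those replicates was smaller, with a biological coefficient of variation of 8.58% against 16.2% in the aggregates, and the summed libraries held 6227570 to 8542262 counts. Only 79 of the calls went beyond a log2 change of 1, and the median size of a called change was 0.37, against 1.19 in the aggregates. The lower spread and greater depth let smaller changes be called there, so the medians come from unlike sets of genes. The controls of the tables are separate. Of the 875 aggregate calls 850 were tested across the membrane. In the same direction 184 were called in both, which is 21.6% of the aggregate calls and 12.7% of the 1453 Boyden calls tested in both. In opposite directions 110 were called, 74 of them higher in aggregates and lower across the membrane. The 1453 Boyden calls, in either direction, were among 7827 genes tested in both. Over those genes the log2 changes of the formats had a Pearson correlation of 0.087. Osteopontin RNA was higher in both formats: across the membrane Spp1 stood at 106, 89.4, 89.8, 91.7 and 105 CPM with 393P, against 15.9, 22.1, 19.1, 21.03 and 23.7 CPM in CAFs alone (2.24 ± 0.09), and the difference between the formats was 0.16 ± 0.20 (adjusted p = 0.722). Pdgfra was higher across the membrane, where it was lower in aggregates: it stood at 207, 228, 221, 216 and 229.9 CPM with 393P, against 134, 131, 127, 123 and 138 CPM in CAFs alone (0.75 ± 0.05), and the difference between formats was -2.55 ± 0.22 (adjusted p = 1.45e-09). Col6a3 stood at 93.7, 84.7, 89.8, 77.3 and 76.9 CPM with 393P, against 92.3, 97.02, 101, 109 and 97.3 CPM in CAFs alone (-0.23 ± 0.07), a difference of 2.97 ± 0.16. Cxcl12 stood at 1859, 1820.3, 1774, 1819 and 2013 CPM with 393P, against 1880.3, 1871, 1820.0, 1851 and 1851 CPM in CAFs alone (0.00 ± 0.05), with groups that overlap, and the difference of -2.65 ± 0.15 rests on the aggregates. Differences between formats come from a joint fit with a shared coefficient of variation of 9.50%, under the 16.2% of the aggregates. For Pdgfra, Col6a3 and Cxcl12 their SE is below that of the aggregate change alone. SEs and adjusted p-values of such differences may therefore be too small.

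**Figure D5:**
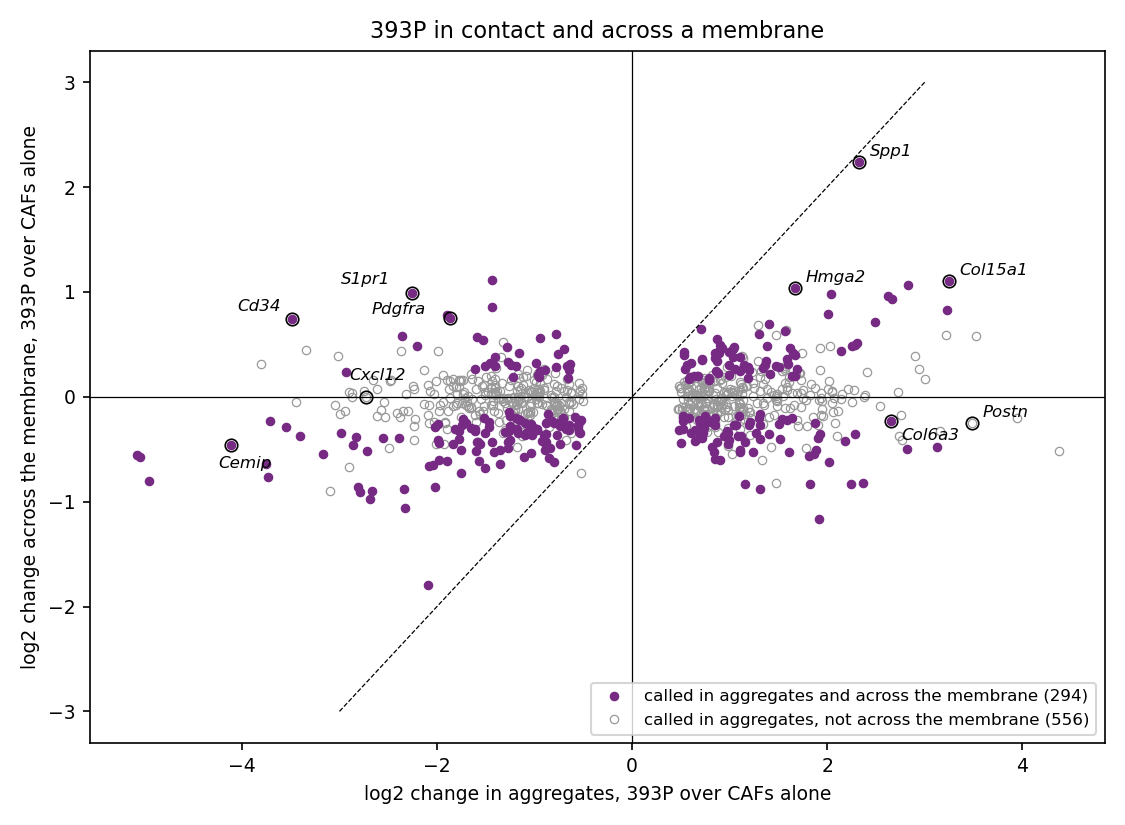
Log2 change with 393P relative to CAFs alone across the Boyden membrane (vertical axis) against that in aggregates (horizontal axis) for the 850 genes called in aggregates and tested in both; filled points were also called across the membrane, 184 in the same direction and 110 in the opposite one. Spp1 lies near the diagonal, Pdgfra, S1pr1 and Cd34 lie in the upper left, and Cxcl12 and Postn lie near the horizontal axis.

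A joint fit tested the difference between the formats itself and called 1363 of 15193 genes, or 8.97%, 803 of them with a higher change in the aggregates (5.29%) and 560 with a lower one (3.69%). Of the 850 aggregate calls tested in both, 711 had such a call, all with the sign of the aggregate change. The difference contains the aggregate change that selected these genes, from the same libraries. The share is therefore no separate test of the format. Among genes also called against CAFs alone in aggregates, those with the largest positive differences were these: Cpxm2 differed by 4.28 ± 0.47, Sema7a by 4.23 ± 0.67, Axin2 by 4.26 ± 0.74, Syn1, a synaptic vesicle protein, by 3.82 ± 0.76 and Foxs1 by 5.14 ± 0.78. Axin2, Sema7a and Syn1 did not pass the filter on low counts in the Boyden table alone. In the same set the largest negative differences were those of Pkia (-4.86 ± 0.94), Emb (-4.78 ± 0.85), Atp1b1 (-4.31 ± 0.71), Cd34 (-4.20 ± 0.52) and Cyp7b1 (-4.13 ± 0.62). The values of Pkia, Emb and Atp1b1 went to -8.84, -8.77 and -9.25 without the 393P library that held their only reads, which was replicate 2 for Pkia, replicate 3 for Emb and replicate 1 for Atp1b1. Postn and Notch3 differed by 3.81 ± 0.21 and 2.92 ± 0.34. The lipid receptor S1pr1 was lower in aggregates and higher across the membrane (0.99 ± 0.09; difference -3.23 ± 0.39), and so was Vcam1 (0.42 ± 0.06; difference -1.50 ± 0.18). Hmga2 was higher in both formats (1.04 ± 0.06 across the membrane), and its difference was 0.72 ± 0.15. The tables also differ in culture vessel (aggregate or chamber), number of replicates, controls, depth and spread, so contact and these features cannot be told apart. With a spread of its own for each table, a choice made after the data were seen, 817 of 7827 genes were called, 456 with a higher change in the aggregates and 361 with a lower one.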

How the data were processed

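RNA was sequenced in bulk from fibroblasts sorted out of 2 culture formats. The deposited tables hold raw counts per gene, 1 column per library and 48440 genes per table, as made by the authors. Per the submitters' processing notes, STAR, HTSeq and the mm10 build were used, while their versions, annotation release and strand setting were not given in the sources used here. Members and gene lists were chosen with earlier results of these data known: 62 lists hold 1513 distinct genes, of which 846 passed the filter on low counts. The libraries were deep enough for about 1 CPM per count, so genes of a few CPM rest on few reads, and counting intervals cover counting error only.

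Genes passing filterByExpr were scaled by TMM and tested with edgeR 4.0.16 (limma 3.58.1, R 4.3.3), using robust quasi-likelihood fits over the 9 libraries of the aggregate table, Benjamini-Hochberg adjustment over all genes tested and a threshold of 0.05. CPM values were computed from the TMM-scaled library totals. In the Boyden table the 3 technical libraries of each biological replicate were summed and the 15 sums fitted. The difference between formats came from a joint fit of both tables, with one spread. Ratios with counting intervals replace fold changes where a group held few or no reads. A call was kept where its sign and an adjusted p under 0.05 held in all 9 fits with 1 library left out. Scripts were tested on simulated data. Alternatives were other scalings, no filter, DESeq2 1.42.0, a minimum log2 change of 1, a replicate block, only the 6 libraries compared, scaling without rRNA-like and mitochondrial genes, and left-out libraries. A spread without robust weights and a spread per table were added after the data were seen.

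Named genes were the 15 largest rises and falls with groups apart and the higher group averaging 5 CPM or more, up to 6 members per list by smallest p, the 5 with the most reads in each direction, fixed markers, and the 5 largest differences in each direction from the other comparisons. Positions and exon overlap were read from GENCODE M21. Of the 252 named genes matched there, 70 shared exon bases with a gene on the opposite strand, 6 of them over 20 percent. Promoter windows came from RefSeq (GRCm38.p6). Figures were drawn in Python 3.11.15 with matplotlib 3.10.9. Some results are not reported here.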

Additional observations from a re-analysis of the deposited data

Results flagged for a closer look

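The change with 393P differed between aggregates and Boyden chamber for 1363 of 15193 genes, by the joint edgeR fit. Among the genes named above, the log2 change in aggregates exceeded that across the membrane by 5.14 for Foxs1, 4.28 for Cpxm2, 4.26 for Axin2, 4.23 for Sema7a, 3.82 for Syn1, 3.81 for Postn, 2.97 for Col6a3, 2.92 for Notch3 and 0.72 for Hmga2. It was lower in aggregates for Pkia (-4.86), Emb (-4.78), Atp1b1 (-4.31), Cd34 (-4.20), Cyp7b1 (-4.13), S1pr1 (-3.23), Cxcl12 (-2.65), Pdgfra (-2.55) and Vcam1 (-1.50). Pkia, Emb and Atp1b1 had only 1, 1 and 2 counts over the aggregate libraries with 393P, so their sizes are loose. In the Boyden table alone Axin2, Sema7a and Syn1 failed the filter on low counts. The formats differ at once in contact, culture vessel (aggregate or chamber), number of replicates, controls, spread and sequencing depth, so these cannot be told apart.

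Carcinoma marker genes, none of which passed the filter on low counts, summed to 108 CPM in 393P replicate 3, above the 22.9 to 30.4 CPM of CAFs alone. They summed to 32.6 and 35.7 CPM in 393P replicates 1 and 2, also above CAFs alone. Their part in the results was not tested beyond leaving out 393P replicate 3, which gave 779 calls.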

How the results depend on the processing

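The count of genes called against CAFs alone, 875, ranged from 641 with DESeq2 to 900 with only the 6 libraries compared, and from 644 to 954 with 1 library left out. Requiring a log2 change of at least 1 left 164 (72 higher, 92 lower), and 33 between the lines (23 higher, 10 lower). Upper-quartile scaling called 417 higher and 456 lower. With the replicate block the test called 857; same-numbered libraries did not deviate together (correlations from -0.032 to 0.068), so the numbers are not taken to pair samples, and the block gave 320 calls between the lines and 1806 in the Boyden chamber. With 1 library left out, calls ranged from 250 to 356 between the lines, from 1579 to 2522 in the Boyden chamber and from 1127 to 1420 for the difference between formats. With each table's own spread the last was 817. The Axin2 difference between the lines, not called, ranged from -0.28 to 0.13 with 1 library left out and changed sign without 344SQ replicate 2 (0.10) and without 393P replicate 3 (0.13). DESeq2 did not call Adam10, Cx3cl1, Hsd17b7, Prune2 or Rrm1, no filter lost Hsd17b7 and Rrm1, and upper-quartile scaling and the block lost Hsd17b7. Acta2 was called once robust weights were dropped (adjusted p = 0.0295). RLE scaling, removal of rRNA-like and mitochondrial genes and the fit of only 6 libraries lost none of the calls of named genes tested against CAFs alone. At about 1 CPM per count, changes in genes under a few CPM were not detectable.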
